A study of Mus musculus with 4 samples.

Results

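Glutathione S-transferases (GSTs) were followed through 10 genes in mouse mammary tumours: Gsta4, Gstm1, Gstm2, Gstm5, Gstp1, Gstt1, Gstt2, Gsto1, Mgst1 and Mgst3. They were found as the array probes outside controls whose printed gene name is one of these symbols, which gave 12 probes for 9 of the 10 genes, among 32630 genes or transcripts tested. Gsta4 was not found this way. Its probe is printed under a cDNA clone name and was matched to Gsta4 through the RefSeq accession listed for it, so it is described beside the others and left out of their counts.

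Cytosolic GSTs join the tripeptide glutathione to reactive, electrophilic compounds, which makes carcinogens, drugs and products of lipid peroxidation more soluble and easier to export. They are sorted into classes by sequence (alpha, mu, pi, theta and omega here), while the microsomal enzymes Mgst1 and Mgst3 belong to a separate family of membrane proteins called MAPEG. Many of these genes are transcribed under NRF2, a factor that is stabilised by oxidants and electrophiles and binds antioxidant response elements.

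The tumours came from female FVB/N mice aged 26 weeks, at an early tumour stage. A group of 2 tumours carried both transgenes, MMTV-cdc25a and MMTV-neu (called Cdc25a;neu), and a group of 2 tumours carried MMTV-neu alone (called neu). All 4 tumours thus share MMTV-neu, and both transgenes are driven by the mouse mammary tumour virus promoter, which is active mainly in mammary epithelium. Cdc25a is a phosphatase that activates cyclin-dependent kinases, neu is the receptor tyrosine kinase Erbb2, and the comparison asks which transcripts change when Cdc25a is over-expressed. Each Cdc25a;neu tumour was hybridised with 1 neu tumour on 2-colour arrays, once in each dye orientation, so arrays 1 and 2 hold pair 1 and arrays 3 and 4 hold pair 2.

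Ratios are log2 values of Cdc25a;neu over neu, so that a value above 0 means more signal in the Cdc25a;neu tumour. The 2 arrays of a pair carry the same RNA and were averaged, leaving n = 2 pairs, and ± is the SD between them. Between 78.5% and 92.2% of spots per array and channel were well above background. Array ratios over all genes correlated at 0.65 within pair 1 and 0.76 within pair 2, and at 0.21 to 0.37 across pairs. The Cdc25a probe itself stood at 0.05 ± 0.06, and the labels do not say whether this probe reads the transgene. All 12 member probes and the Gsta4 probe were well above background in both channels on all 4 arrays, and none was saturated. Their precision is limited by the number of arrays and mice.

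No GST gene passed the test between the genotypes. In limma with Benjamini-Hochberg adjustment over all genes, 0 of the 9 members had an adjusted p under 0.05, as did 0% of all genes (lowest adjusted p 0.2229). At an unadjusted p under 0.05 there was 1 member, Gsto1, against 9.64% of all genes. The members were higher in Cdc25a;neu in both pairs for 4 genes (Gsto1, Gstm2, Mgst1 and Gstp1), where 31.9% of all genes were. They were lower in both pairs for 1 gene, Gstm1, where 28.1% of all genes were. The other 4, Gstm5, Gstt2, Gstt1 and Mgst3, were above 0 in pair 1 and below 0 in pair 2. The same 4 genes that were higher in both pairs were higher on all 4 arrays, against 14.7% of all genes, and 0 members were lower on all 4, against 12.4%. These counts use the brightest probe of each gene. The second probe of Gstp1 was below 0 on arrays 3 and 4 (-0.11 and -0.02), and that of Mgst1 on array 4 (-0.08). That of Gstm1 was below 0 on all 4 arrays (-0.10, -0.01, -0.07 and -0.25), unlike its brightest probe. The median ratio of the 9 members was 0.03, with 0.15 in pair 1 and -0.01 in pair 2, beside a median of 0.003 over all genes.

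**Figure D1:**
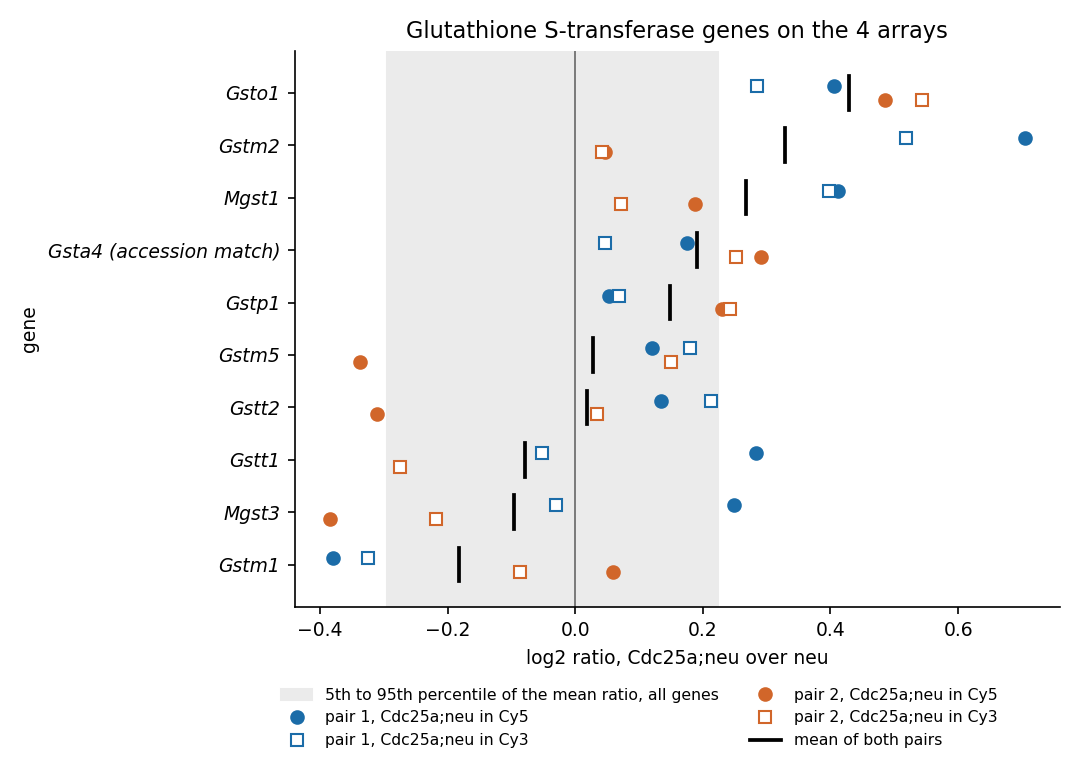
Log2 ratio of Cdc25a;neu over neu (x axis) for each GST gene (y axis) on each array, with circles and squares for the dye orientations, blue for pair 1 and orange for pair 2, a black bar for the mean of both pairs, and grey for the 5th to 95th percentile of that mean over all genes (-0.29 to 0.22). Gsto1, Gstm2, Mgst1, Gsta4 and Gstp1 lie to the right of 0 on every array, and Gstm5 and Gstt2 each have a single orange circle (array 3) far to the left of their other points.

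Gsto1 encodes the omega class enzyme, which acts as a thiol transferase and a dehydroascorbate reductase more than as a conjugating enzyme. It showed the largest ratio among the 10 members, measured by probe A_51_P155313. Its ratios were 0.40, 0.28, 0.48 and 0.54 on arrays 1 to 4. All 4 arrays were above 0, and pair 2 stood above pair 1. The pair ratios of 0.34 and 0.51 gave a mean of 0.43 ± 0.12, a 1.35-fold higher signal with a 95% limma interval of 0.20 to 0.66. This did not pass the test over all genes (unadjusted p = 0.0106, limma adjusted p = 0.464), and 95.8% of all genes had a smaller mean ratio in size. In level, the Cdc25a;neu tumours stood at 8.67 and 9.05 and the neu tumours at 8.33 and 8.54 (normalised log2 intensity). The tumours of the genotypes did not overlap, though the neu tumour of pair 2 and the Cdc25a;neu tumour of pair 1 lay close together. An exact two-sided permutation test of 2 against 2 tumours gave p = 0.333, the smallest it can give.

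The call for Gsto1 depended on how the arrays were treated. It passed when loess was replaced by median centring (0.50, limma adjusted p = 0.0469), a setting under which 990 genes passed. It also passed with each of the 4 arrays as a unit and a random effect of the pair, a fit that counts technical repeats (limma adjusted p = 0.0245, 910 genes passing). The ratio itself stayed between 0.40 and 0.53 over these and the other settings that use both pairs. Gsto2, the neighbouring omega class gene on chromosome 19, was at 0.14 in pair 1 and 0.03 in pair 2.

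Mu class enzymes conjugate a wide range of electrophiles, epoxides among them, and their genes lie in a cluster on chromosome 3. Gstm2 had the second largest ratio among the 10 members, most of it from pair 1. Its ratios were 0.70, 0.52, 0.05 and 0.04 on arrays 1 to 4. The mean was 0.33 ± 0.40 with a limma interval of -0.27 to 0.93 (adjusted p = 0.634). In level, the Cdc25a;neu tumour of pair 1 stood at 9.24, while the other Cdc25a;neu tumour was at 8.71 and the neu tumours at 8.63 and 8.66. A single tumour was thus apart from the other 3. Gsto1 and Gstm2 were the 2 members whose Cdc25a;neu tumours were both above both neu tumours, as were those of 8.65% of all genes.

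Gstm1, a major mu class enzyme of the liver, went the other way in the pair that carried Gstm2. Its ratios were -0.38, -0.32, 0.06 and -0.09 on arrays 1 to 4, for a mean of -0.18 ± 0.24 (limma interval -0.56 to 0.19, adjusted p = 0.664). The Cdc25a;neu tumour of pair 1 was at 10.99, below the range of 11.34 to 11.49 that held the other 3. A second Gstm1 probe, A_52_P415215, gave -0.06 and -0.16 in the pairs, so that both probes were below 0 in both pairs while they differed on which pair was the lower. By the brightest probes, 0 members had both Cdc25a;neu tumours below both neu tumours, beside 11.2% of all genes. By the second Gstm1 probe the Cdc25a;neu tumours, at 6.63 and 6.68, were narrowly below the neu tumours, at 6.69 and 6.84.

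In the RefSeq gene order Gstm2 and Gstm1 are next to each other among the GST genes, after Gstm5, Gstm7, Gstm6 and Gstm3 and before Gstm4. Their pair 1 ratios of 0.61 and -0.35 had opposite signs, and in pair 2 both lay within 0.05 of 0. Gstm6, Gstm3 and Gstm4 were at 0.02, -0.13 and 0.07 in pair 1 and at -0.06, 0.16 and 0.04 in pair 2. The mu genes are close in sequence, and whether a probe also reads a neighbour could not be examined, since probe sequences were not used here.

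Gstm5, a further mu class enzyme, rested on 1 array. Its ratios were 0.12, 0.18, -0.34 and 0.15 on arrays 1 to 4. Array 3 lay apart from the other 3, including the swapped array of the same RNA. The mean was 0.03 ± 0.17 (limma interval -0.26 to 0.32, adjusted p = 0.935), and it was 0.15 without array 3 and -0.09 without array 4. The gap of 0.49 between its swapped arrays in pair 2 was wider than that of 96.8% of all genes.

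Gstp1, the pi class enzyme, is widely expressed in epithelia and is known for its part in drug resistance of tumours. Its brightest probe, A_51_P374457, read 0.05 and 0.07 on the arrays of pair 1, against 0.23 and 0.24 on those of pair 2. The swapped arrays were within 0.02 of each other in both pairs, and pair 2 stood above pair 1. The mean was 0.15 ± 0.12 (limma interval -0.08 to 0.38, adjusted p = 0.595). The second Gstp1 probe, A_51_P374464, gave 0.10 in pair 1 and -0.06 in pair 2, with a mean of 0.02, so the probes disagreed in pair 2. The authors' deposited table gave 0.06 for the first probe. The tumour levels overlapped, at 12.22 and 12.01 in Cdc25a;neu and at 12.16 and 11.78 in neu. Gstp1 has close gene copies, Gstp2 and Gstp3, and which of them a probe reads is uncertain. Gstp3 was at 0.17 in pair 1 and 0.12 in pair 2.

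Gsta4 encodes an alpha class enzyme with high activity toward 4-hydroxynonenal, a product of lipid peroxidation. Its probe was spotted 10 times on each array, and the means over these spots were 0.18, 0.05, 0.29 and 0.25 on arrays 1 to 4. The SD over the 10 spots was 0.06 to 0.07 on each array, smaller than the difference between the arrays of pair 1. Both pairs were above 0 (0.11 and 0.27), with a mean of 0.19 ± 0.11 (limma interval -0.03 to 0.41, adjusted p = 0.534). The scanner's own log ratio gave 0.39, and so did the authors' deposited table, while leaving out the background correction gave 0.18. What moved the value was not tested. In level, the Cdc25a;neu tumours at 7.01 and 6.99 were both above the neu tumours at 6.90 and 6.72.

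The theta class enzymes Gstt1 and Gstt2, known for activity toward small halogenated compounds and sulfate esters, were above 0 in pair 1 and below 0 in pair 2. Gstt1 gave 0.28 and -0.05 on the arrays of pair 1 and -0.27 on array 4. Its spot on array 3 carried an outlier flag in the red channel and was left out of the fit, so pair 2 rests on a single array. The mean was -0.08 ± 0.28 (limma interval -0.50 to 0.35, adjusted p = 0.863). With the flagged spot kept, at -0.05, the mean was -0.02. Without array 2 it was 0.005.

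Gstt2 stood at 0.14 and 0.21 on arrays 1 and 2 and at -0.31 and 0.03 on arrays 3 and 4. As for Gstm5, array 3 was the low one. The mean was 0.02 ± 0.22 (limma interval -0.34 to 0.37, adjusted p = 0.969), and it changed sign with 1 array left out, at 0.10 without array 3 and -0.07 without array 4. The theta neighbour Gstt3 lay closer together, at -0.27 in both pairs.

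Among the microsomal enzymes, Mgst1 combines transferase and peroxidase activity in the endoplasmic reticulum and the outer mitochondrial membrane. It had the highest ratio in the pair 1 tumours after Gstm2. Its brightest probe, A_52_P549827, read 0.41 and 0.40 on the arrays of pair 1, against 0.19 and 0.07 on those of pair 2. All 4 arrays were above 0, and the pairs differed by more than the swapped arrays did. The mean was 0.27 ± 0.20 (limma interval -0.05 to 0.59, adjusted p = 0.538). The second probe, A_51_P287810, gave 0.32 and 0.02 in the pairs, and was below 0 on array 4 (-0.08). The authors' deposited table gave 0.44 and 0.19 on arrays 1 and 2 and -0.17 and -0.12 on arrays 3 and 4, with a mean of 0.08, so that there pair 2 lay below 0. In level the Cdc25a;neu tumours were at 13.43 and 12.89 and the neu tumours at 13.03 and 12.76, and the groups overlapped.

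Mgst3, which has peroxidase activity and can make leukotriene C4, was split between the pairs. Arrays 1 and 2 gave 0.25 and -0.03, arrays 3 and 4 gave -0.38 and -0.22. The mean was -0.10 ± 0.29 (limma interval -0.54 to 0.35, adjusted p = 0.837). For all 10 genes the missed threshold does not show that they are alike in the genotypes, and with 2 pairs the intervals leave room for differences larger than those measured.

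As for most genes on the arrays, levels of most members differed more between the mouse pairs than between the genotypes. Over the tumour levels, which rest on normalisation between arrays, the tumours of pair 1 and pair 2 differed by more than Cdc25a;neu and neu did in 7 of the 9 members, and in 75% of all genes. Gsto1 and Gstm2 were the 2 exceptions. For Gstt2, the pair 1 tumours were at 8.29 and 8.12 and the pair 2 tumours at 7.66 and 7.80, a difference of 0.47 between pairs beside 0.02 between genotypes. Mgst3 differed by 0.43 between the pairs, Mgst1 by 0.40 and Gstp1 by 0.29, higher in pair 1 in each case. Gsto1 and Gstm1 were the 2 members with the higher level in pair 2. The difference between pairs was not tested, and the mice of a pair and the arrays they were run on cannot be told apart in it.

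**Figure D2:**
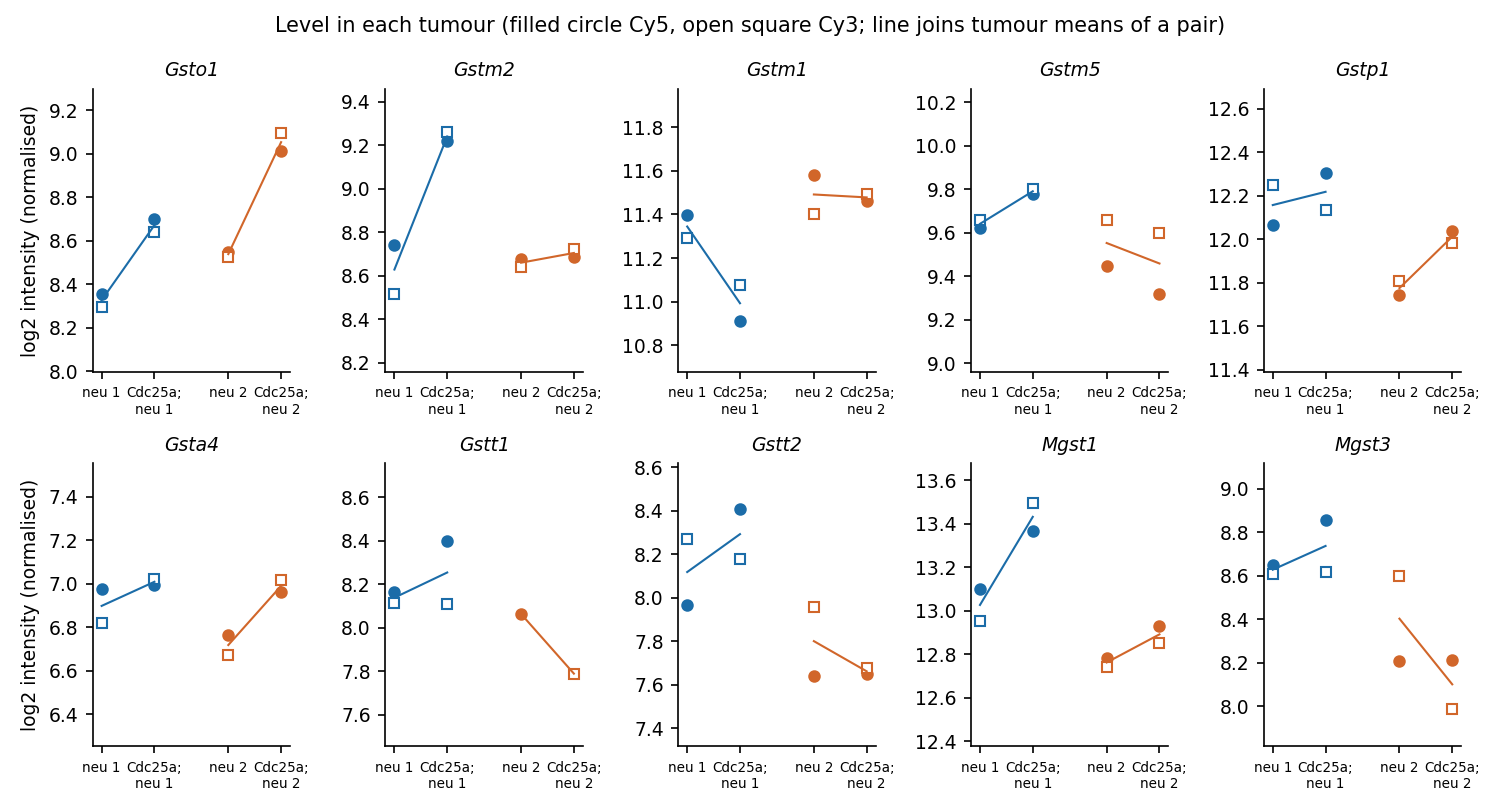
Normalised log2 intensity (y axis, 1 panel per gene, all of the same height in log2 units) in each of the 4 tumours (x axis), with circles for Cy5, squares for Cy3, blue for pair 1 and orange for pair 2, and a line joining the tumour means of a pair. Lines of Gsto1 rise in both pairs, from 8.33 to 8.67 and from 8.54 to 9.05, while the Gstm2 line rises from 8.63 to 9.24 in pair 1 and is nearly level in pair 2.

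The gap between the pairs was larger in these genes than in the typical gene. It ran from 0.17 in Gsto1 to 0.57 in Gstm2, beside a median of 0.09 over all genes. That median was not matched to the members in brightness, and a part of brightness in the gap was not tested. The gap between swapped arrays of the same RNA was 0.02 or less in both pairs of Gstp1 and 0.12 and 0.06 in Gsto1, beside medians of 0.11 in each pair over all genes. Mgst3 and Gstt1 had gaps of 0.28 and 0.34 in pair 1, larger than their ratios of 0.11 and 0.12 there.

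Promoter sequences were searched for the core of the antioxidant response element, because NRF2 is the best known regulator of the family. The letters TGACNNNGC were looked for on both strands from 250 bases before to 50 bases after each RefSeq start. Windows were given for 8 members (not for Gsta4 and Gstt2), and 2 of them, Gstm5 and Mgst1, held a match. In all, 12.4% of 32851 windows and 14.0% of 27025 genes held one, and so did 11 of 26 genes on the NRF2 list below. Both matches are shown in capitals with the bases around them, on the plus strand of GRCm38.p6, 5′ to 3′. The Gstm5 stretch is chr3:107895782-107895850, with the match beginning at -42 from the start of the gene. The Mgst1 stretch is chr6:138140441-138140509, with the match beginning at -56 and reading on the minus strand. The window of another RefSeq start of Mgst1 held 0 matches.
Gstm5: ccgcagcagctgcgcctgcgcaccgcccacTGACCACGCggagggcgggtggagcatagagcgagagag
Mgst1: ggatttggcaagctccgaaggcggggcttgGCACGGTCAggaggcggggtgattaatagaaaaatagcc
These are matches of letters, not shown to be bound. Of the genes that hold them, Mgst1 was above 0 in both pairs and Gstm5 in pair 1 alone, and Gsto1 and Gstm2, with the largest ratios, hold none in their windows.

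The other genes of the GST and MAPEG families were spread around 0 as well. Of 20 listed, 17 were measured and 0 passed the test. In both pairs 7 were higher and 3 lower, against 31.9% and 28.1% of all genes. The median of the list was 0.06. The largest ratio was that of Alox5ap, a MAPEG protein that presents arachidonic acid to 5-lipoxygenase and is not a detoxifying enzyme. Alox5ap stood at 0.98 in pair 1 and 1.55 in pair 2, for a mean of 1.27 ± 0.40 (limma adjusted p = 0.449). Gsta3, an alpha class enzyme, was at -0.39 ± 0.49, with -0.04 in pair 1 and -0.73 in pair 2, and Gstt3 at -0.27 ± 0.01. All 3 kept 1 sign on all 4 arrays without passing.

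The genes that make, recycle and use glutathione did not pass either. Of 30 listed, 29 were measured. In both pairs 12 were higher and 4 lower, against 31.9% and 28.1% of all genes. The list had a median of 0.03, beside 0.03 for the GST members. Those of 1 sign on all 4 arrays were Glrx3, a glutaredoxin, at 0.22 ± 0.24, Gss, the synthetase that completes glutathione, at -0.19 ± 0.04, and Chac2, which degrades glutathione, at -0.08 ± 0.07.

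Genes of the NRF2 pathway outside the GSTs did not pass the test. Of 29 listed, 27 were measured. In both pairs 5 were higher and 9 lower, against 31.9% and 28.1% of all genes. On all 4 arrays 0 were higher and 8 lower, against 14.7% and 12.4% of all genes. The median of the list was 0.04. An unadjusted limma p under 0.05, in either direction, was found for 7 of the 27, against 9.64% of all genes. Catalase (Cat), which breaks down hydrogen peroxide, was at -0.52 ± 0.05, and the peroxiredoxin Prdx1 at -0.52 ± 0.33. The glutathione-dependent peroxiredoxin Prdx6 was at -0.55 ± 0.04 by its brightest probe and at 0.03 by another kept probe, so its value is uncertain. The classical NRF2 targets Hmox1 and Nqo1, named with Txnrd1, Srxn1 and Nfe2l2 after their values were seen, went opposite ways in the pairs, while Txnrd1 and Srxn1, targets that reduce thioredoxin and oxidised peroxiredoxins, were below 0 in both. Hmox1, which degrades haem, was at -0.65 in pair 1 and 1.79 in pair 2, and the quinone reductase Nqo1 at -0.71 and 0.48. Txnrd1 was at -0.23 and -0.13 and Srxn1 at -0.21 and -0.08, though Srxn1 was above 0 on array 4 (0.09). The 5 genes higher in both pairs, also named after their values were seen, were Txn1, Ephx1, G6pdx, Me1 and Blvrb. Txn1, with array 4 alone in pair 2, was at 0.36 and 0.17 and Ephx1 at 0.15 and 0.23. Both were among the 7 genes with an unadjusted limma p under 0.05. G6pdx was at 0.33 and 0.035, Me1 at 0.73 and 0.003 and Blvrb at 0.11 and 0.01. Nfe2l2, which encodes NRF2, was at -0.17 and 0.03.

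**Figure D3:**
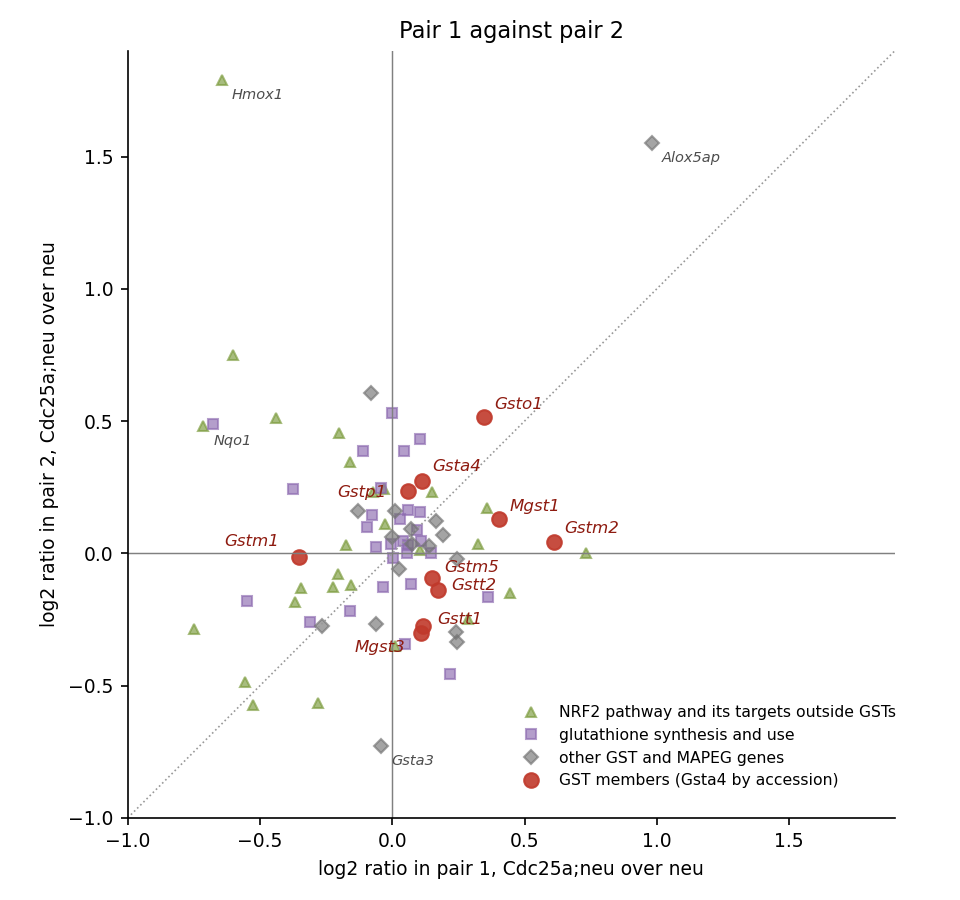
Log2 ratio of Cdc25a;neu over neu in pair 1 (x axis) against pair 2 (y axis) for the GST members (red circles, with Gsta4) and for the other GST and MAPEG genes, the glutathione genes and the NRF2 list, with a dotted line where both pairs are equal. Gsto1 at 0.34 and 0.51 is the member farthest from 0 in both pairs at once, the 4 members in the lower right have opposite signs, and Hmox1 and Alox5ap lie far outside the members' range.

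Genes with array ratios nearest to those of the leading members were sought among all genes with a current symbol, by the largest difference over the 4 arrays. For Gsto1 they were Avpi1 and Sf3b2, each with a largest difference of 0.053, and Ctsc, with 0.077, and 120 genes lay within 0.25. For Gstm2 they were Bola3, Atp5md and Fam181b, with largest differences of 0.081, 0.095 and 0.0998, with 41 genes within 0.25. The 120 genes near Gsto1 were thus a small part of the 15339 genes with a current symbol. The limit of 0.25 is itself close to the Gsto1 ratio on array 2 (0.28).

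The tumours differed in the summed signal of marker genes of other tissues. In bulk tumour RNA, fewer cells of a type and less RNA per cell cannot be told apart. The summed signal of 10 fat cell markers, 9 of them well above background throughout, was 11.45 and 11.78 on the log2 scale in the Cdc25a;neu tumours and 12.95 and 14.24 in the neu tumours. The 9 macrophage markers summed to 12.99 and 15.13 in Cdc25a;neu and to 13.38 and 13.35 in neu, with the Cdc25a;neu tumour of pair 2 apart. Most of this sum was Lyz2, at 12.48 and 14.99 in Cdc25a;neu and at 12.93 and 12.95 in neu. Its mean ratio was 0.79 by this probe and 0.33 by another kept probe. By single genes, 1 macrophage marker was higher in both pairs and 0 were lower, against 31.9% and 28.1% of all genes, and 8 had opposite signs. The 10 skeletal muscle markers summed to 12.23 in the neu tumour of pair 2 and to 10.49 to 10.59 in the other 3. The summed signal of the 10 luminal epithelial markers ran from 15.71 to 15.85 over all 4, and 9 of them were well above background throughout. By single genes, 5 of the 10 were lower in Cdc25a;neu in both pairs and 1 was higher, against 28.1% and 31.9% of all genes. The 9 fibroblast markers summed to 11.13 and 13.07 in Cdc25a;neu and to 11.47 and 12.24 in neu, and the 9 endothelial markers to 10.90 and 11.67 and to 10.86 and 11.43, both lists being higher in the tumours of pair 2. The 7 measured myoepithelial markers ran from 11.64 to 11.91 and the 7 measured lymphocyte markers from 11.01 to 11.15. Fat markers were thus lower in the Cdc25a;neu tumour of both pairs, where Gsto1 was higher. Summed macrophage and fibroblast signals, like Hmox1, were lower in the Cdc25a;neu tumour of pair 1 and higher in that of pair 2. By single genes, 5 of the 9 fibroblast markers were lower in both pairs, against 28.1% of all genes, and 4 had opposite signs. Of the 9 endothelial markers 7 were higher in both pairs and 0 lower, against 31.9% and 28.1% of all genes. The part of other tissue in the GST ratios was not tested.

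**Figure D4:**
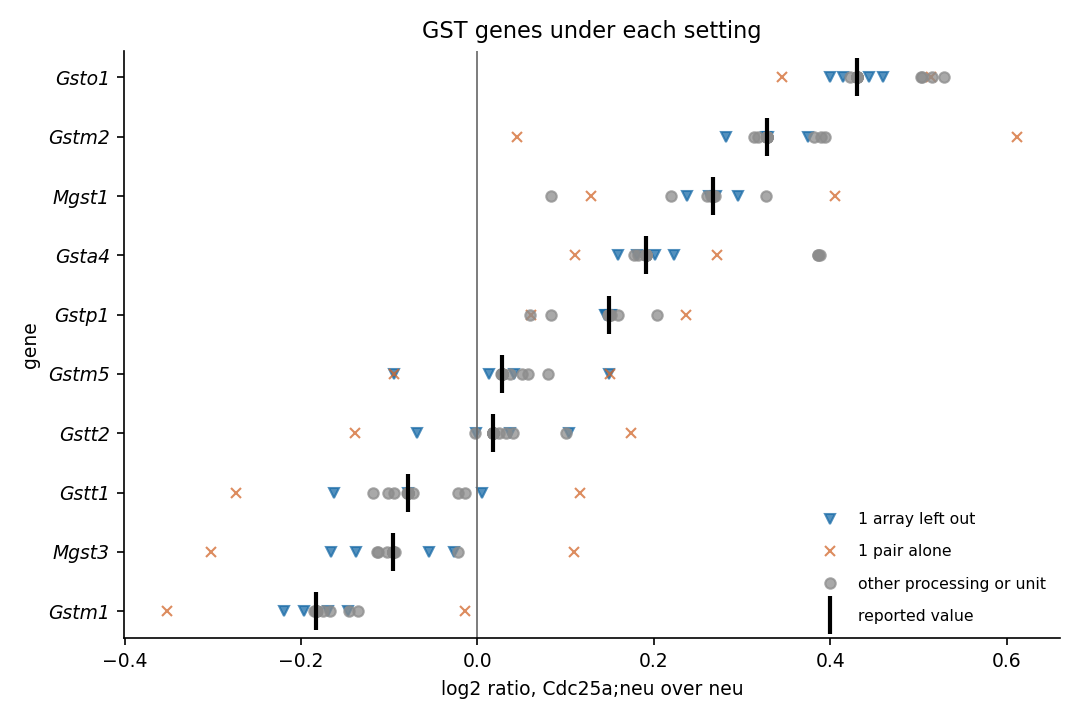
Log2 ratio of Cdc25a;neu over neu (x axis) of each GST gene (y axis) as reported (black bar), with 1 array left out (triangles), in 1 pair alone (crosses) and under the other settings (grey circles). Gsto1, Gstm2, Mgst1, Gsta4 and Gstp1 stay above 0 and Gstm1 below 0 in all of them, while Gstm5, Gstt2, Gstt1 and Mgst3 cross 0 in at least 1.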

How the data were processed

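Spot intensity and background of both channels, quality flags and a log10 ratio (red over green) stand in the scanner files, per the file headers. The submitters' processing notes name Agilent Feature Extraction 7.2 and the headers 7.5.1. The authors' deposited value table holds natural log values, red over green (slopes of 2.27 to 2.29 against the scanner's log10 ratio, where 2.303 is expected, r of 0.982 to 0.992, column medians of 0.0007 to 0.0209). Its centring is unknown. Turned to log2, it was an alternative source.

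Intensities were corrected by normexp (offset 50) and loess within arrays, with control and outlier-flagged spots left out. Probes had to be well above background in 1 channel or both on 2 or more arrays, and each gene took its brightest probe. Ratios were turned to one direction and averaged per pair, and limma 3.58.1 (R 4.3.3) tested the mean ratio against 0, two-sided, with Benjamini-Hochberg adjustment at 0.05 over 32630 genes. Tumour levels are channel values after loess and Aquantile. The procedure was tested on simulated data. Probes were named through RefSeq tables of GRCm38.p6, which also gave gene order and promoters. The files name no build.

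All members are described. From each other list, the 3 genes with the largest ratio among those of 1 sign on all 4 arrays are named, since 0 passed. The members and lists were chosen with earlier results of these data known. Alternatives covered background, normalisation, probe filter and choice, moderation, unit of replication, the authors' table, each array left out and each pair alone. Keeping outlier-flagged spots was added after seeing the data.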

Additional observations from a re-analysis of the deposited data

Results flagged for a closer look

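One GST value stood apart from the other arrays of its gene. The Gstm5 ratio of -0.34 on array 3, where the Cdc25a;neu tumour of pair 2 was labelled with Cy5, was far below 0.12 to 0.18 on the other 3. The gap to the nearest of them was 0.886 of the whole range, above the critical value of Dixon's test. The swapped array of the same RNA gave 0.15. Chance flags about 1 in 20 groups of 4 independent values, and 12 probes with a value on all 4 arrays were examined. The 4 arrays are 2 swapped pairs and not independent, so this rate is only a rough guide here.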

How the results depend on the processing

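Gsto1 was 0.43 and did not pass as reported, and it passed with median centring in place of loess (0.504, limma adjusted p = 0.0469) and with the 4 arrays as units and the pair as a random block (0.43, adjusted p = 0.0245), so the members past the threshold were 1 in both cases and 0 in every other tested setting. Its limma adjusted p ran from 0.0245 to 1 over the settings, and was 1 in the per-tumour fit without a replicate block. With the pair as a replicate block, the per-tumour fit repeated the reported ratios and adjusted p (0.464 for Gsto1). It is thus no separate check. Members lower in both pairs numbered 1 as reported, 0 with median centring, and 0 to 3 with 1 array left out. The median of the members ran from 0.013 to 0.149 with 1 array left out and was 0.15 in pair 1 alone. Members higher in both pairs numbered 4 as reported, 3 in the authors' deposited table, 5 with median centring and 4 to 6 with 1 array left out. Gstt2 was -0.003 in the authors' deposited table, ran from -0.069 to 0.104 with 1 array left out (-0.002 without array 2), and was -0.139 in pair 2 alone. Gstt1 ran from -0.163 to 0.005 (without array 2) with 1 array left out and was 0.116 in pair 1 alone. Gstm5 was -0.094 without array 4 and in pair 2 alone, and Mgst3 was 0.109 in pair 1 alone. The left-out arrays and single pairs rest on fewer arrays by construction. For the other settings the cause was not tested. Keeping outlier-flagged spots changed no call and no sign. Over the settings that use both pairs, Gstm2 ran from 0.28 to 0.39, Mgst1 from 0.08 to 0.33, Gstp1 from 0.06 to 0.20, Gsta4 from 0.16 to 0.39 and Gstm1 from -0.22 to -0.14. All GST probes were well above background, and the 2 mouse pairs limit the precision of every ratio.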
